A study of Mus musculus with 15 samples.

Results

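Gene expression in the blood of mice given the lower of 2 doses of ABBV-075, 1 mg/kg, was compared with that of mice given vehicle. Of the 15 arrays in the series, 10 enter the comparison: 5 from mice dosed with 1 mg/kg and 5 from mice dosed with vehicle, chosen by their titles. The other 5 arrays, from mice given 5 mg/kg, were normalised and fitted together with them and are set beside them where a dose difference is given. Blood was taken 6 h after dosing, total RNA was extracted from whole blood, and each mouse had 1 Affymetrix mouse array. Strain, age, route of dosing, the composition of the vehicle and any dosing cohorts are not given in the sources used here.

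ABBV-075 (mivebresib) is a small molecule that occupies the bromodomains of the BET proteins, a family that includes Brd2 and Brd3. BET proteins bind acetylated lysines of histones and recruit P-TEFb, a kinase through which paused RNA polymerase enters elongation, so that genes with short-lived transcripts and strong enhancers are known to be sensitive to such compounds. In blood, BET inhibitors are known for lowering inflammatory and monocyte genes, and Hexim1, an inhibitor of P-TEFb, is known as a gene that rises with them. Whole blood RNA mixes red cell precursors, platelets, neutrophils, monocytes, eosinophils and lymphocytes, and in such a mixture fewer cells of a type cannot be told apart from less RNA per cell.

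Values are log2 intensities after quantile normalisation, in which values below a floor of 16 were set to it, so that 4.00 is the lowest possible log2 value. A gene was tested where it lay above the floor on at least 5 of the 15 arrays, which left 12499 of 18193 genes, and 52.7% of all probe set values lay at the floor. A gene is called changed at a limma adjusted p under 0.05. Before normalisation the median probe set intensity was 11.6 to 15.1 on the vehicle arrays, and at 1 mg/kg it ranged from 3.61 on replicate 1 to 25.4 on replicate 4. On those 2 arrays 80.3% and 42.3% of deposited values lay at or under the floor. Defining genes of blood cells were present: Pf4 (platelets), Cd3e (T cells), Cd79a (B cells) and Csf1r (monocytes) lay above the floor on all 5 arrays with vehicle and all 5 at 1 mg/kg. Replicates 1 and 4 also lay farthest from the mean of the other 1 mg/kg arrays, with a median absolute deviation over genes of 0.545 and 0.464 against 0.330 to 0.415 on the other 3. The median SD of a gene within the group was 0.50 at 1 mg/kg and 0.39 with vehicle, and 67.3% of genes had the larger SD at 1 mg/kg.

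A second difference between arrays concerned genes of liver cells. The 8 genes of largest spread among the bright genes at 1 mg/kg were Apoh, Thrsp, Fgg, H2-Q10, Got2, Mup3, Scd1 and Ambp, most of them known as genes of hepatocytes. Fgg, a chain of fibrinogen, was at 4.00, 7.12, 9.32, 11.52 and 9.61 on replicates 1 to 5 at 1 mg/kg and at 9.84, 4.00, 7.49, 7.39 and 6.69 with vehicle. Of 35 hepatocyte genes, a list made after these values were seen, 29 were measured, and their mean log2 value was 5.83, 8.40, 9.24, 11.27 and 9.39 at 1 mg/kg. With vehicle it was 10.07, 4.74, 8.19, 8.34 and 7.40, and at 5 mg/kg 9.29, 9.39, 8.89, 9.08 and 4.69. In each group 1 array was far below the others (vehicle replicate 2, 1 mg/kg replicate 1 and 5 mg/kg replicate 5). The groups overlapped, and the median log2 difference of the 29 genes was 1.08 at 1 mg/kg, with 0 past the threshold. Its part in the results that follow was not tested beyond the 2 alternatives given with them.

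**Figure D1:**
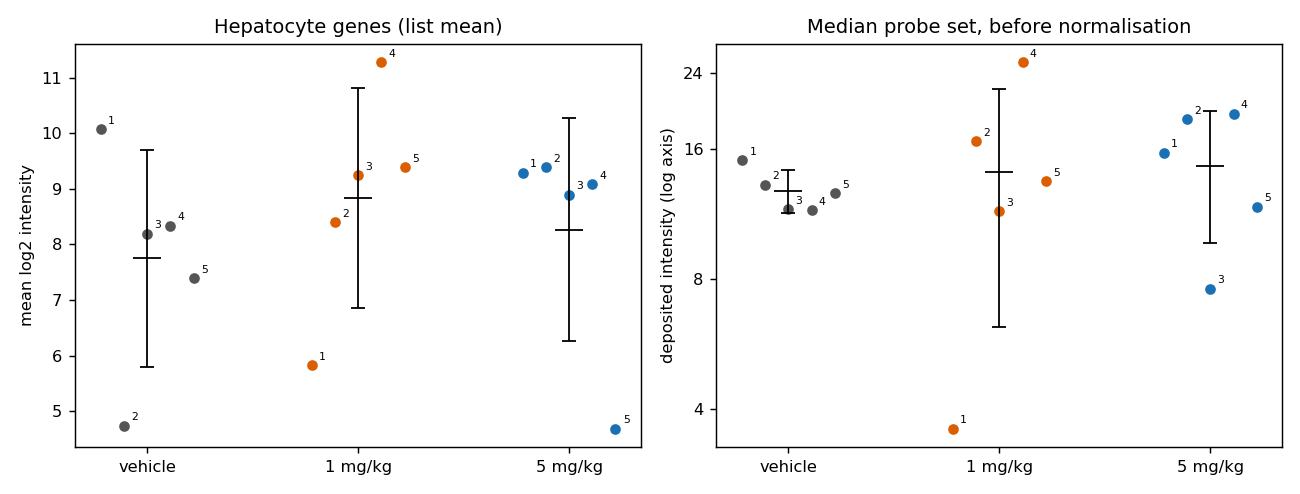
Left, the mean log2 intensity of the 29 measured hepatocyte genes on each array; right, the median deposited intensity of all probe sets on each array before normalisation, on a log axis. Points are arrays labelled by replicate number, and bars give the group mean and SD (n = 5). At 1 mg/kg replicate 1 is lowest and replicate 4 highest in both panels.

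At 1 mg/kg 1 gene passed the threshold, 0.008% of the genes tested, and it was lower, with 0 genes called higher. Ear3, a secreted ribonuclease of the eosinophil-associated family, was 5.93-fold lower (difference in log2 value -2.57, SE 0.34, limma adjusted p = 0.0171, 5 arrays in each group). It met the filter of 5 arrays above the floor only through the vehicle group, where it was high. Its p is therefore no independent evidence of a fall. The next smallest adjusted p was 0.163. These values come from the joint fit with the 5 mg/kg arrays. Fitted without those arrays, 0 genes passed, and the limma adjusted p of Ear3 was 0.323. At an unadjusted p under 0.05 there were 754 genes, 246 higher (1.97% of those tested) and 508 lower (4.06%), where 625 would pass by chance alone. In 113 genes (0.904%) the 5 arrays at 1 mg/kg did not overlap the 5 vehicle arrays, 90 of them lower (0.72%) and 23 higher (0.184%). Over all genes the median log2 difference was -0.02, and 47.0% of genes were above 0. A gene that does not pass the threshold is not shown to be the same in both groups here, since the median SE of a log2 difference was 0.289 with 5 arrays per group.

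**Figure D2:**
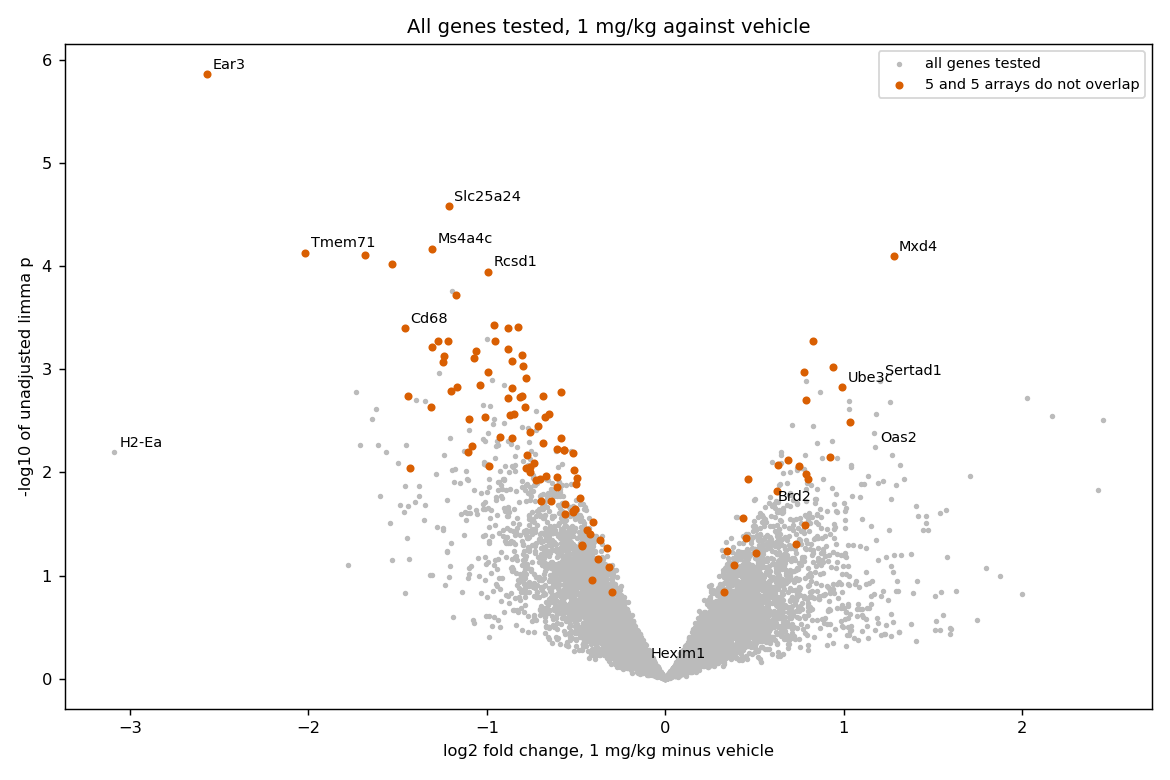
Each point is 1 of the 12499 genes tested, with the log2 fold change of 1 mg/kg minus vehicle on the x axis and the -log10 of the unadjusted limma p on the y axis. Orange points are the 113 genes whose 5 and 5 arrays did not overlap; Ear3, at -2.57, is the gene that passed the threshold after adjustment.

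Ear3 (Entrez Gene 53876) was at 7.53, 7.00, 7.64, 7.61 and 6.82 on the vehicle arrays. At 1 mg/kg it was at 4.00, 5.68, 5.82, 4.25 and 4.00, so that replicates 1 and 5 lay at the floor and 3 of 5 arrays gave a measured value. Every 1 mg/kg array lay below every vehicle array, the nearest pair being 5.82 and 6.82. At 5 mg/kg all 5 arrays lay at the floor. Without its vehicle arrays Ear3 would not have met the filter of 5 arrays, so the group where it was high let it be tested. The difference between the doses (5 mg/kg minus 1 mg/kg) was -0.75 ± 0.34 with a limma adjusted p = 0.622 over all genes, with the 5 mg/kg value bounded by the floor. The fold at 1 mg/kg depends on the floor for the same reason. The SE at 1 mg/kg was pooled over all groups, and the floored 5 mg/kg arrays entered it with an SD of 0. The SD was 0.38 with vehicle and 0.92 at 1 mg/kg. Fitted without the 5 mg/kg arrays Ear3 was at -2.56 (limma adjusted p = 0.323). How much of that change came from the floored arrays was not tested. The probe set of Ear3 is of the kind that can match related transcripts, and the near-identical members of its family cannot be told apart by it. The call was lost in 16 of 27 alternatives that tested the gene, among them leaving out vehicle replicate 1, 3 or 4 or 1 mg/kg replicate 1, 4 or 5 (adjusted p = 0.0677 to 0.0906), and leaving out replicates 1 and 4 together gave -2.14 (adjusted p = 0.373). The log2 18S signal was also lower on average in the 1 mg/kg group than with vehicle, and its part was not separated. With 18S as a covariate Ear3 was at -2.53 (adjusted p = 0.32).

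The other genes of eosinophils and basophils gave smaller differences. Of 22 listed genes 5 were measured above the floor often enough, Ear3 among them, with 4 lower and 1 higher and a median of -0.31 against -0.02 over all genes. Alox15, a lipoxygenase of eosinophils and macrophages, was at 8.58, 7.87, 4.60, 7.72 and 7.05 with vehicle and 7.01, 5.84, 7.60, 5.90 and 6.12 at 1 mg/kg, and the groups overlapped (-0.67 ± 0.72, SE). Gata1, a transcription factor shared by eosinophil, basophil, megakaryocyte and erythroid cells, was at -0.31 ± 0.23, Gata2 at -0.26 and Prg2, the major basic protein of eosinophil granules, at 0.19 with 1 vehicle array above the floor. None of these 4 passed the threshold.

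No gene after Ear3 passed the threshold after adjustment. Mxd4, described below, was higher and had the sixth smallest p of all genes, but its brighter group lay under the median of all genes and it is not among those named first. By the rule for naming genes, the 15 with the smallest p of 68 eligible lower genes are described here, with adjusted p values of 0.163 to 0.394 for the 14 other than Ear3. All 15 were lower under each of the 28 alternatives that gave them a value. They were picked for arrays that do not overlap, so most alternatives could hardly turn a sign, and this adds no support. The sizes did move: Rcsd1 came as near 0 as -0.0173 and Slc25a24 as -0.606. Several are known as genes of monocytes and macrophages.

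Plac8, a small cysteine-rich protein of myeloid and lymphoid cells, was at 9.53, 10.38, 10.33, 10.36 and 9.79 with vehicle and at 7.42, 9.02, 8.82, 8.49 and 8.23 at 1 mg/kg. The highest treated array lay 0.50 below the lowest vehicle array, and the difference was -1.68 ± 0.32 (SE; 3.21-fold lower; adjusted p = 0.165). At 5 mg/kg it was at -1.67 ± 0.32 (adjusted p = 0.0611), and the doses differed by 0.01 ± 0.32. Tmem71, a membrane protein of little-known function, was at 7.49, 7.99, 7.38, 7.84 and 7.24 with vehicle and 4.91, 7.08, 5.70, 4.67 and 5.47 at 1 mg/kg. Replicate 2 stood above the other treated arrays, close under the vehicle arrays, and the difference was -2.02 ± 0.38 (adjusted p = 0.165). Without that replicate Tmem71 passed the threshold beside Ear3. Slc25a24, a mitochondrial carrier of ATP-magnesium and phosphate, was at 5.92, 5.58, 5.66, 5.93 and 5.53 with vehicle and 4.00, 4.44, 4.95, 4.79 and 4.38 at 1 mg/kg (-1.21 ± 0.21; adjusted p = 0.163). It passed at 5 mg/kg with a value of almost the same size (-1.16 ± 0.21; adjusted p = 0.0485), and the difference between the doses was 0.05 ± 0.21.

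Ms4a4c, a membrane protein of the Ms4a cluster expressed by monocytes, was at 6.63, 7.63, 7.15, 6.81 and 6.59 with vehicle and 5.71, 6.22, 5.74, 5.35 and 5.25 at 1 mg/kg. No array overlapped (-1.31 ± 0.24, SE; adjusted p = 0.165), and its other probe set gave -1.43 ± 0.31. Cd68, a lysosomal glycoprotein of macrophages, was at 6.74, 6.82, 6.66, 6.45 and 5.99 with vehicle and 4.29, 5.72, 5.93, 5.43 and 4.00 at 1 mg/kg, where replicate 5 lay at the floor. Its highest treated array and its lowest vehicle array were 0.06 apart, and the difference was -1.46 ± 0.33 (adjusted p = 0.351). Mpeg1, which encodes perforin-2, a pore-forming protein of phagocytes, was at 8.30, 8.03, 8.51, 8.33 and 8.43 with vehicle and 7.21, 7.49, 7.01, 7.23 and 6.13 at 1 mg/kg (-1.31 ± 0.31; adjusted p = 0.379). Here the groups were well apart and replicate 5 was the lowest.

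Among the others, Emp3, a membrane glycoprotein, was at -1.17 ± 0.24 (SE; adjusted p = 0.235). Tgfbi, a secreted matrix protein made by monocytes, was at -0.83 ± 0.18 (adjusted p = 0.351), and its 3 other probe sets gave -1.09, -1.12 and -1.14. Capg, an actin-capping protein of macrophages, was at -1.27 ± 0.29 (adjusted p = 0.351) and at -1.41 in its other probe set. Ptpro, a receptor tyrosine phosphatase, was at -0.96 ± 0.22 (adjusted p = 0.351), Card6, a caspase recruitment domain protein, at -1.07 ± 0.26, and Lgals3, the lectin galectin-3, at -0.86 ± 0.21. St8sia6, a sialyltransferase, was at -1.06 ± 0.25, with -0.32 and -0.91 in 2 other probe sets.

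Rcsd1, a regulator of actin capping, was lower at 1 mg/kg and near the vehicle level at 5 mg/kg. It was at 7.50, 7.97, 7.95, 7.72 and 7.82 with vehicle, at 6.42, 6.84, 7.28, 6.84 and 6.60 at 1 mg/kg, and at 7.71, 7.33, 7.41, 7.91 and 7.62 at 5 mg/kg. The 1 mg/kg arrays lay below all arrays of both other groups. The difference from vehicle was -0.99 ± 0.20 (SE; adjusted p = 0.176) at 1 mg/kg and -0.19 ± 0.20 at 5 mg/kg, and 5 mg/kg minus 1 mg/kg was 0.80 ± 0.20 (unadjusted p = 8.6e-04; adjusted p = 0.486). Its 2 dimmer probe sets gave 0.32 and 0.60 at 1 mg/kg, so the direction rests on 1 probe set.

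**Figure D3:**
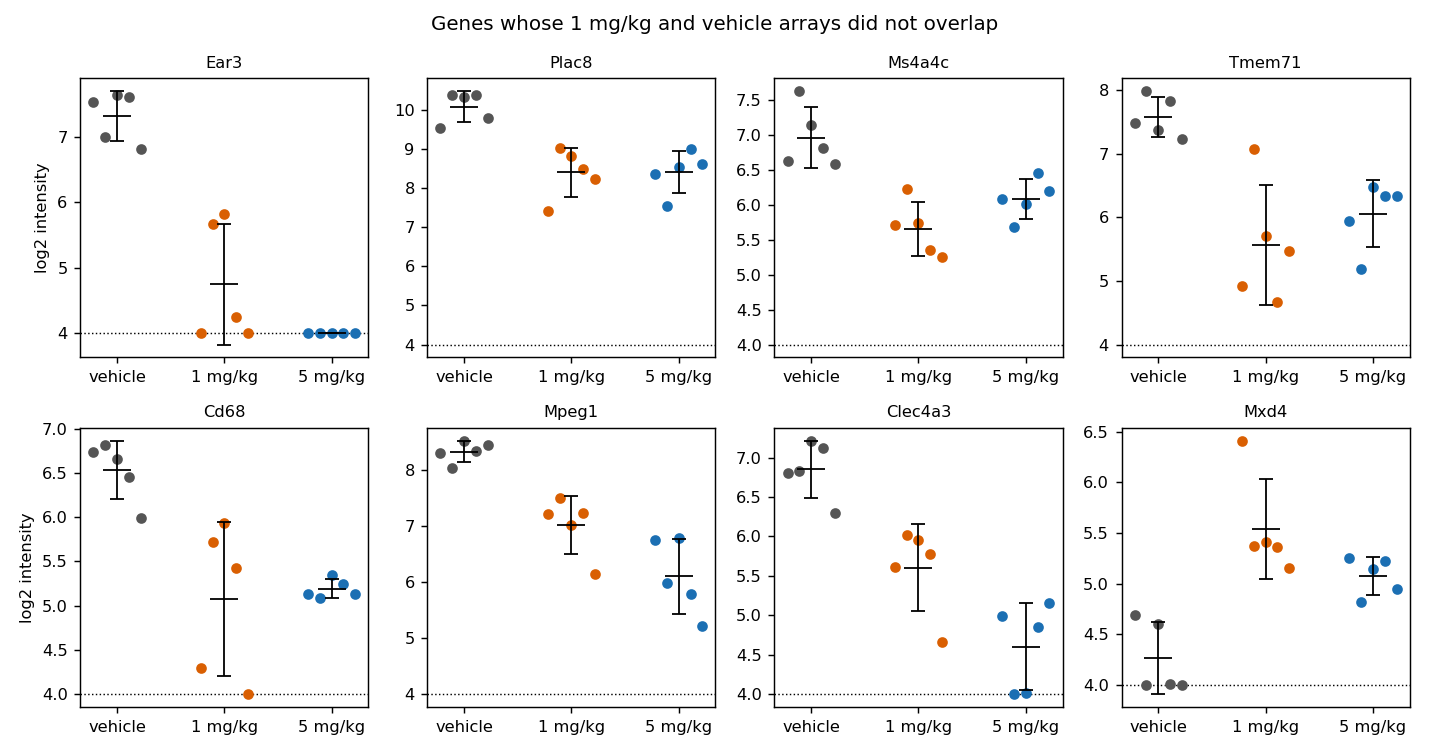
Log2 intensity on each array (points) with the group mean and SD (n = 5) for 8 genes whose 1 mg/kg arrays did not overlap the vehicle arrays, with the 5 mg/kg arrays beside them. The dotted line is the floor at 4. Ear3 lies at the floor on 2 arrays at 1 mg/kg and on all 5 at 5 mg/kg; Mxd4 is higher on all 5 arrays at 1 mg/kg.

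On the higher side, 15 genes were eligible and all are named here; 0 passed the threshold, with adjusted p values of 0.407 to 0.872. Echdc2, a mitochondrial enzyme of the enoyl-CoA hydratase family, was at 5.13, 4.60, 5.15, 4.76 and 4.00 with vehicle and 5.71, 5.56, 6.13, 5.59 and 5.34 at 1 mg/kg (0.94 ± 0.23, SE; adjusted p = 0.407). Ube3c, a ubiquitin ligase, was at 8.22, 7.39, 8.16, 7.39 and 7.48 with vehicle and 9.40, 8.45, 8.43, 8.39 and 8.93 at 1 mg/kg (0.99 ± 0.26; adjusted p = 0.455). The arrays of both genes were apart, but the other probe set of Ube3c gave -0.14 ± 0.25. Prc1, a protein of the mitotic spindle midzone, was at 4.97, 5.05, 4.57, 5.36 and 5.14 with vehicle and 5.42, 6.50, 5.53, 6.63 and 6.22 at 1 mg/kg (1.04 ± 0.30; adjusted p = 0.529). At 5 mg/kg Prc1 was at 0.01 ± 0.30.

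The remaining 12 were at 0.33 to 0.80. Vcp, the ATPase that extracts ubiquitylated proteins, was at 0.63 ± 0.21 (SE), Clec4f, the galactose-binding lectin of Kupffer cells, at 0.79 ± 0.27, and Entpd5, a nucleotidase of the endoplasmic reticulum, at 0.80 ± 0.28. The 4 other probe sets of Entpd5 gave -0.05 to 0.02. B4galnt4 was at 0.75, Tbata at 0.73, Clcn4, a chloride-proton exchanger, at 0.63, Pgs1, an enzyme of cardiolipin synthesis, at 0.51 and Mipep, a mitochondrial peptidase, at 0.46. Mast4, a kinase, was at 0.45, Pdlim5 at 0.38, Atp5a1, the alpha subunit of ATP synthase, at 0.35 and the kinesin Kif13b at 0.33. Other probe sets had the opposite sign for Mipep (-0.49), Clcn4 (-0.29), Mast4 (-0.16 and -0.10), Pgs1 (-0.16 and -0.04), Pdlim5 (-0.16) and Kif13b (-0.15). Of the 15 higher genes 13 kept their sign under each of the 28 alternatives, and Mipep and Mast4 turned negative in 1 and 2 of them. These genes too were picked for arrays that do not overlap, so a kept sign adds no support.

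Mxd4, a repressor that competes with Myc for its partner Max, was higher on all 5 treated arrays and belongs to the list of Myc and its partners. It was at 4.69, 4.00, 4.60, 4.01 and 4.00 with vehicle, where 3 of 5 arrays were above the floor, and at 6.41, 5.37, 5.41, 5.36 and 5.16 at 1 mg/kg (1.28 ± 0.24, SE; adjusted p = 0.165). Replicate 1, the dimmest array, was the highest. At 5 mg/kg it was at 0.81 ± 0.24 (adjusted p = 0.29), and its other probe set gave 0.47 ± 0.37 at 1 mg/kg. The size of the difference depends on which of these 2 similarly bright probe sets stands for the gene. It was 1.11 to 1.45 in the 17 alternatives that kept the first, 0.107 to 0.716 in the 10 in which the other was the brighter, and 0.491 for their mean. Myc itself was above the floor on 5 of 5 vehicle arrays (4.23, 6.34, 5.88, 4.79 and 4.41) and on 2 of 5 at 1 mg/kg (4.00, 4.63, 4.00, 4.00 and 4.53). The groups overlapped (-0.90 ± 0.36; adjusted p = 0.782). Over the 12 measured genes of that list 6 were higher and 6 lower, with a median of 0.03.

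Monocyte markers were mostly lower at 1 mg/kg, though 0 of 31 passed the threshold. Of the 31 measured, 28 were lower and 3 higher, with a median log2 difference of -0.60 against -0.02 over all genes, and 16 were lower at an unadjusted p under 0.05 (4.06% of all genes were). The list was chosen with earlier results of these data known, so its counts are a description and were not tested. In 6 of the 31 all 5 treated arrays lay below all 5 vehicle arrays (0.72% of all genes): Cd68, Ms4a4c and Mpeg1 given above, Clec4a3, Ctss and Adgre4. Clec4a3, a C-type lectin receptor, was at 6.81, 6.82, 7.21, 7.12 and 6.29 with vehicle and 5.61, 6.02, 5.96, 5.78 and 4.66 at 1 mg/kg (-1.25 ± 0.30, SE; adjusted p = 0.394). Ctss, the protease that trims the invariant chain of MHC class II, was at 9.92, 10.40, 9.94, 9.88 and 9.49 with vehicle and 9.07, 9.19, 9.34, 9.19 and 8.60 at 1 mg/kg (-0.85 ± 0.24; adjusted p = 0.508). Both were apart on every array, by 0.27 for Clec4a3 and 0.15 for Ctss. Adgre4, an adhesion receptor of monocytes named after its values were seen, was at -1.43 ± 0.48 with an SD of 1.42 at 1 mg/kg.

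Not every marker of the list was lower. Csf1r, the receptor that defines the monocyte lineage, was at 0.05 ± 0.40 (SE), Spn at 0.19 and Fcgr1 at 0.00, while Ccr1, a chemokine receptor, was at -0.99 ± 0.35, Klf4, a transcription factor of monocyte differentiation, at -0.72 ± 0.20 and Ccr2, which draws monocytes out of the marrow, at -0.80 ± 0.37. Ccr2 gave -1.58 and 0.31 in 2 other probe sets, and Ccr1 -0.09 in a dim one. The mean of the 31 genes was 7.38, 7.57, 7.34, 7.55 and 7.15 with vehicle and 6.84, 6.80, 7.21, 6.67 and 6.42 at 1 mg/kg. Replicate 3 overlapped the lowest vehicle array and the other 4 treated arrays lay below all vehicle arrays. The median of the list kept its sign under each of the 28 alternatives (-0.75 to -0.46), and was -0.61 with the hepatocyte mean as a covariate and -0.48 without the 4 arrays of extreme hepatocyte signal. The log2 18S signal of the same arrays was lower as well, 11.19 ± 0.94 (SD, n = 5) with vehicle and 9.97 ± 0.43 at 1 mg/kg (exact two-sided permutation p = 0.0397; adjusted p = 0.238 over 6 array measures), and its part was not separated from that of the dose.

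The promoters of Ms4a4c, Cd68 and Mpeg1 are shown because these are the 3 monocyte markers with the smallest p at 1 mg/kg, and PU.1, the transcription factor that directs monocyte development, is known to bind purine-rich sites with a GAGGAA core. The sequences are the 250 bases before the annotated gene start, from RefSeq for GRCm38.p6, given 5′ to 3′ on the strand of the gene, with any GAGGAA in capitals. They lie at chr19:11407411-11407660 (plus strand) for Ms4a4c, chr11:69666171-69666420 (minus strand) for Cd68 and chr19:12460520-12460769 (plus strand) for Mpeg1. The 6 letters were searched on both strands.
Ms4a4c: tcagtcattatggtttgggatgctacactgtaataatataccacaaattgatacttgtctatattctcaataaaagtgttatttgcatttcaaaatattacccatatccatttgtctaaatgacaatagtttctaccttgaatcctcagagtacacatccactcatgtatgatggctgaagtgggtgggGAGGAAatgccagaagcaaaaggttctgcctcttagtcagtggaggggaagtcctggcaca
Cd68: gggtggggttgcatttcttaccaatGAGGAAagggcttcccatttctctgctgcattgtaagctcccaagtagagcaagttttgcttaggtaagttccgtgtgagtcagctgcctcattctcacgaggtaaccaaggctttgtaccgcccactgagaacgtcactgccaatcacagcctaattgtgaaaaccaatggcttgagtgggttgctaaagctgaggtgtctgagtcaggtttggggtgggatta
Mpeg1: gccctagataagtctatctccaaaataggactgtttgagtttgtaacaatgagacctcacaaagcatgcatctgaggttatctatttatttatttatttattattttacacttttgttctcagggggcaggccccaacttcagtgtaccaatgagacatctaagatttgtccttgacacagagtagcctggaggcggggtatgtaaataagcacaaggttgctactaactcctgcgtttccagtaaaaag
Ms4a4c and Cd68 each hold 1 match and Mpeg1 holds 0. Of all 32851 promoter windows of that length 7639 (23.3%) hold at least 1, so a match is common and is only a description of these letters.

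Most neutrophil markers were lower too. Of 17 measured markers of mature neutrophils 14 were lower and 3 higher, with a median of -0.55 at 1 mg/kg and -0.35 at 5 mg/kg, and 0 passed. Clec4d, a lectin receptor of phagocytes, was at 7.53, 8.34, 7.49, 8.32 and 7.76 with vehicle and 7.43, 7.13, 7.33, 6.41 and 7.36 at 1 mg/kg (-0.76 ± 0.26, SE; adjusted p = 0.722). Il1b, the inflammatory cytokine interleukin-1 beta, was at 7.04, 7.02, 7.43, 7.61 and 7.17 with vehicle and 6.78, 6.88, 6.95, 6.34 and 6.50 at 1 mg/kg (-0.56 ± 0.22; adjusted p = 0.782). Both were lower on all 5 treated arrays, by margins of 0.07 or less. Fpr2, a formyl peptide receptor, was at -0.84 ± 0.27 and S100a8, a calcium-binding protein abundant in neutrophils, at -0.80 ± 0.37. Granule genes of immature neutrophils did not clearly share this: 6 of 9 were higher and the median was 0.13. That median ranged from -0.03 to 0.19 and changed sign in 2 of 28 alternatives. The highest member, Orm1, was at 1.09 ± 0.84, while Chil3, a chitinase-like protein also made by monocytes, was at -1.62 ± 0.45 (adjusted p = 0.477).

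The genes of MHC class II encode the proteins that present antigen on B cells, dendritic cells and some monocytes. Of 9 measured, 8 were lower and 1 higher at 1 mg/kg, with a median of -0.79 there and 0.19 at 5 mg/kg, and 0 passed at either dose. H2-Ea, the alpha chain of I-E, was at 8.90, 9.82, 4.14, 8.12 and 8.22 with vehicle and 4.40, 4.00, 4.00, 4.00 and 7.35 at 1 mg/kg. The values were near the floor or far above it in both groups, which overlapped (-3.09 ± 0.98, SE; adjusted p = 0.659), and 5 mg/kg replicates were at 7.77, 4.00, 5.94, 6.06 and 4.00. Of its 2 other probe sets, 1 gave -2.81 ± 0.77 with all 1 mg/kg arrays at the floor, and the other -0.11 ± 0.32. H2-Ob, a chain of the peptide-editing regulator H2-O, was at 6.55, 8.27, 7.19, 6.87 and 7.49 with vehicle and 5.87, 6.89, 6.07, 5.82 and 5.01 at 1 mg/kg (-1.34 ± 0.37; adjusted p = 0.455).

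H2-Aa, the alpha chain of I-A, was at 9.41, 10.74, 10.30, 9.33 and 9.54 with vehicle and 9.62, 9.41, 9.45, 9.36 and 7.16 at 1 mg/kg, so that replicate 5 stood apart (-0.87 ± 0.47, SE). Other bright probe sets of H2-Aa gave -0.89 ± 0.44 and -0.13 ± 0.49, so its size depends on the probe set. H2-DMa, of the peptide loader H2-DM, was at -0.67 ± 0.26. For these genes 5 mg/kg minus 1 mg/kg was 1.19 ± 0.47 (H2-Aa; unadjusted p = 0.0222, adjusted p = 0.556) and 0.87 ± 0.26 (H2-DMa; unadjusted p = 0.00456, adjusted p = 0.488), so no dose difference passed. H2-Ab1 was at -1.32 ± 0.75 and H2-Eb1 at -0.79 ± 0.63. Cd74, the invariant chain, was at -0.27 ± 0.29, and Ciita, the coactivator that switches the class on, at 0.36 ± 0.25.

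Lymphocyte, platelet and erythroid lists had medians closer to 0 and no member past the threshold. NK cell markers had a median of -0.46 over 17 genes, 15 of them lower, with the activating receptor Ncr1 at -0.88 ± 0.36 (SE) and at the floor on replicate 4. Dendritic cell markers had a median of -0.34 over 15 genes, 10 of them lower. Ccr9, a homing receptor of plasmacytoid dendritic cells, was at 5.22, 6.45, 6.17, 5.78 and 5.44 with vehicle and 4.03, 5.21, 5.01, 4.80 and 4.00 at 1 mg/kg (-1.20 ± 0.32; adjusted p = 0.455), just without overlap. Tcf4, which directs plasmacytoid dendritic cell development, was also lower on all 5 arrays (-0.77 ± 0.25; adjusted p = 0.671), and its 3 other probe sets gave -0.42, -0.38 and 0.08.

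Platelet markers were lower in 23 of 24 genes, with a median of -0.33. Clec1b, the podoplanin receptor of platelets, was at 9.99, 11.34, 11.72, 11.73 and 11.42 with vehicle and 10.63, 10.58, 10.26, 10.87 and 10.34 at 1 mg/kg (-0.70 ± 0.31, SE). Vehicle replicate 1 was the lowest of all 10 arrays, so the groups overlapped. Gp6, the collagen receptor, was at -0.78 ± 0.34 and Thbs1, thrombospondin-1, at -0.73 ± 0.30. A dimmer Thbs1 probe set gave 0.14. T cell markers had a median of -0.24 over 21 genes, 16 lower, with Il7r, the interleukin-7 receptor, at -0.47 ± 0.20, Icos at -0.51 ± 0.22 and the costimulatory receptor Cd27 at -0.76 ± 0.24, its treated arrays lying at 4.00 to 4.29. B cell markers had a median of -0.21 over 23 genes, 20 lower, with the scaffold protein Bank1 at -0.76 ± 0.25. Erythroid markers had a median of -0.11 over 29 genes, 23 lower. Nfe2, a transcription factor of erythroid and platelet precursors, was lower on all 5 arrays (-0.52 ± 0.21; adjusted p = 0.782), and the globin gene Hba-a1 was at 0.71 ± 0.71. At 5 mg/kg the medians were 0.09 for T cell, 0.23 for B cell, -0.32 for NK cell, -0.23 for platelet and -0.36 for erythroid markers.

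**Figure D4:**
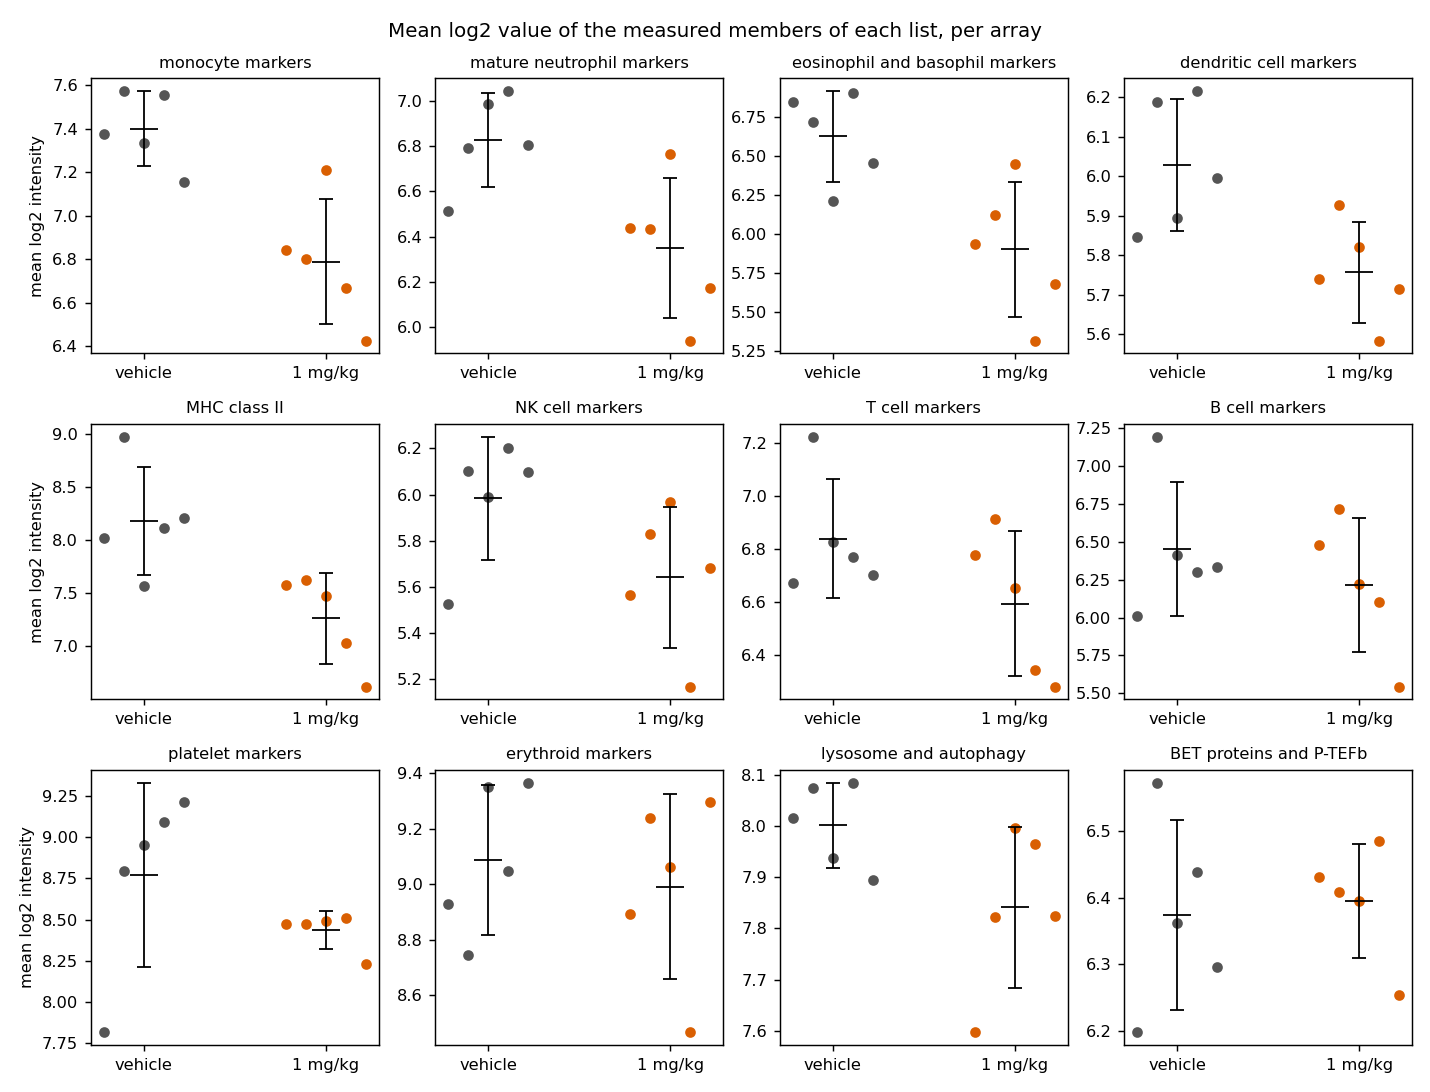
Mean log2 intensity of the measured members of 12 lists on each vehicle and 1 mg/kg array (points), with the group mean and SD (n = 5); the y axes differ and do not start at 0. The 1 mg/kg arrays are lower on average for the monocyte list (6.79 against 7.40) and the MHC class II list (7.27 against 8.18), and 1 or more arrays overlap in every panel shown.

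Genes of innate immune signalling gave medians near the background with a few lower members. Toll-like receptors and their adaptors had a median of -0.13 over 17 genes, 10 lower. Ly86, the partner of the receptor Cd180, was at 7.76 to 8.73 on the 5 vehicle arrays and at 6.87, 7.66, 7.21, 6.94 and 5.60 at 1 mg/kg (-1.31 ± 0.36, SE; adjusted p = 0.477). Those arrays did not overlap. Cd180 itself was at -0.13 ± 0.23, Ly96, the partner of Tlr4, at -0.90 ± 0.23 (adjusted p = 0.455) and Tlr1 at -0.89 ± 0.36. NF-kB subunits and inhibitors had a median of -0.18 over 16 genes, with Birc3, an inhibitor of apoptosis that NF-kB induces, at -1.29 ± 0.44 and the IkB family member Bcl3 at -0.61 ± 0.21. A dimmer Birc3 probe set gave -0.18. Inflammatory cytokines and chemokines had a median of -0.01 over 19 genes, 9 higher and 10 lower, and the cytokine Il10 was at -0.88 ± 0.30.

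Interferon-stimulated genes had a median of -0.23 over 27 genes, 21 lower and 6 higher. Rtp4, a chaperone of receptors, was at 5.33, 5.67, 5.75, 5.11 and 5.81 with vehicle and 4.00, 4.79, 4.00, 4.79 and 4.00 at 1 mg/kg, where 2 of 5 arrays were above the floor (-1.22 ± 0.28, SE; adjusted p = 0.351). Gbp3, a guanylate-binding protein, was at -0.72 ± 0.21, and Oas2, a sensor of double-stranded RNA, went the other way at 1.18 ± 0.37 (adjusted p = 0.656). Lysosome and autophagy genes had a median of -0.17 over 37 genes, 29 lower. Hexa, a lysosomal hexosaminidase subunit, was at 8.20, 8.19, 8.23, 8.33 and 7.92 with vehicle and 7.47, 7.46, 7.77, 7.32 and 6.85 at 1 mg/kg (-0.80 ± 0.20; adjusted p = 0.407). It was below vehicle on every array, as was Ctss, which stands on this list too, while the protease Ctsd (-0.79 ± 0.29) overlapped.

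No gene of the target pathway and none of the study's own markers passed the threshold at 1 mg/kg. Brd2 was at 6.90, 7.35, 6.48, 7.36 and 6.80 with vehicle, at 7.69, 7.82, 7.35, 7.97 and 7.07 at 1 mg/kg and at 7.94, 8.52, 8.25, 8.55 and 7.94 at 5 mg/kg. The 1 mg/kg arrays overlapped the vehicle arrays and the 5 mg/kg arrays did not, as in 2.57% of all genes (0.60 ± 0.23 and 1.26 ± 0.23, SE; adjusted p = 0.782 and 0.058). The other Brd2 probe set gave 1.15 ± 0.35 at 1 mg/kg, and 5 mg/kg minus 1 mg/kg was 0.66 ± 0.23 (unadjusted p = 0.0124, adjusted p = 0.519). Brd3 was at -0.02 ± 0.36, a sign that turned in some alternatives. Of 24 genes of BET proteins, P-TEFb and its partners 13 were higher and 11 lower, with a median of 0.04 that changed sign in 9 of 28 alternatives.

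Hexim1 was at 7.60, 7.30, 7.90, 7.79 and 7.84 with vehicle, at 6.68, 8.10, 7.34, 8.05 and 7.71 at 1 mg/kg and at 7.95, 9.25, 8.74, 8.32 and 8.11 at 5 mg/kg. At 1 mg/kg the arrays lay on both sides of the vehicle arrays (-0.11 ± 0.29, SE; adjusted p = 0.969), and replicate 1, the dimmest array, was the lowest; without replicates 1 and 4 the value was 0.03. The dimmer Hexim1 probe set gave 0.52 ± 0.29. The doses differed by 0.90 ± 0.29 (5 mg/kg minus 1 mg/kg; unadjusted p = 0.00757, adjusted p = 0.491). Serpini1, which encodes the protease inhibitor neuroserpin, was above the floor on 1 of 5 arrays in each of the vehicle and 1 mg/kg groups and on 4 of 5 at 5 mg/kg, so it gives no usable fold at 1 mg/kg. Zcchc24, a zinc finger gene, was at -0.39 ± 0.28 (0.22 in its other probe set). Zmynd8, a reader of histone marks, was at 0.04 ± 0.21, with -0.92, -0.35 and -0.41 in 3 other probe sets. These 4 are blood markers that the study itself picked with these mice in view, so their values are no independent evidence of a direction.

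Genes that passed the threshold at 5 mg/kg (11 of 12499, 0.088%) were set beside their values at 1 mg/kg, both measured against the same 5 vehicle arrays. Sertad1, a transcriptional regulator that binds the kinase CDK4, was at 4.02, 4.00, 4.79, 4.51 and 5.44 with vehicle, at 5.58, 6.64, 5.52, 5.96 and 5.07 at 1 mg/kg and at 6.96, 7.00, 7.12, 7.46 and 7.50 at 5 mg/kg. Only replicate 5 at 1 mg/kg fell within the vehicle range, and all 5 mg/kg arrays were above all 1 mg/kg arrays (no overlap between the doses in 1.16% of genes). The differences from vehicle were 1.20 ± 0.31 (SE; adjusted p = 0.449) and 2.66 ± 0.31 (adjusted p = 0.00138). Their difference, 1.45 ± 0.31, had an adjusted p of 0.453 over all genes, the smallest of that contrast, in which 0 genes passed (0%; limma, 987 at an unadjusted p under 0.05).

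Pla2g7, the hydrolase of platelet-activating factor, was at 8.22, 7.65, 7.58, 7.75 and 7.52 with vehicle and 6.82, 6.26, 7.19, 6.25 and 4.97 at 1 mg/kg, without overlap (-1.44 ± 0.39, SE; adjusted p = 0.455), and at -2.55 ± 0.39 at 5 mg/kg. Dpagt1, the enzyme that starts N-linked glycans, was at 5.90, 6.29, 5.96, 6.23 and 6.00 with vehicle and 5.71, 5.44, 5.43, 5.44 and 5.55 at 1 mg/kg. The treated arrays were tightly grouped below vehicle (-0.56 ± 0.23; adjusted p = 0.782), and the 5 mg/kg difference was -1.65 ± 0.23. The dose difference of Dpagt1 was -1.09 ± 0.23 (unadjusted p = 2.1e-04; adjusted p = 0.453). Clec4a3 was at -2.25 ± 0.30, Mpeg1 at -2.22 ± 0.31, Ccr1 at -2.10 ± 0.35 and Ptpro at -1.65 ± 0.22 at 5 mg/kg, beside the smaller values given above for 1 mg/kg. For these 4 genes 5 mg/kg minus 1 mg/kg was -1.11 to -0.70 (adjusted p = 0.488 to 0.5).

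Histone genes at 1 mg/kg had a median of 0.17 over 12 genes, 7 higher, against 0.41 at 5 mg/kg. H2ax, the variant phosphorylated at DNA breaks, was at 5.73, 6.24, 6.50, 6.15 and 5.93 with vehicle and 6.21, 6.96, 6.58, 6.81 and 6.72 at 1 mg/kg. Replicate 1 lay within the vehicle range (0.55 ± 0.22, SE; adjusted p = 0.782), against 1.46 ± 0.22 at 5 mg/kg. H2aw was at 0.36 ± 0.23 at 1 mg/kg and 1.26 ± 0.23 at 5 mg/kg, with -0.05 in its other probe set at 1 mg/kg. The differences between the doses were 0.92 ± 0.22 for H2ax and 0.90 ± 0.23 for H2aw (adjusted p = 0.486 for each).

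**Figure D5:**
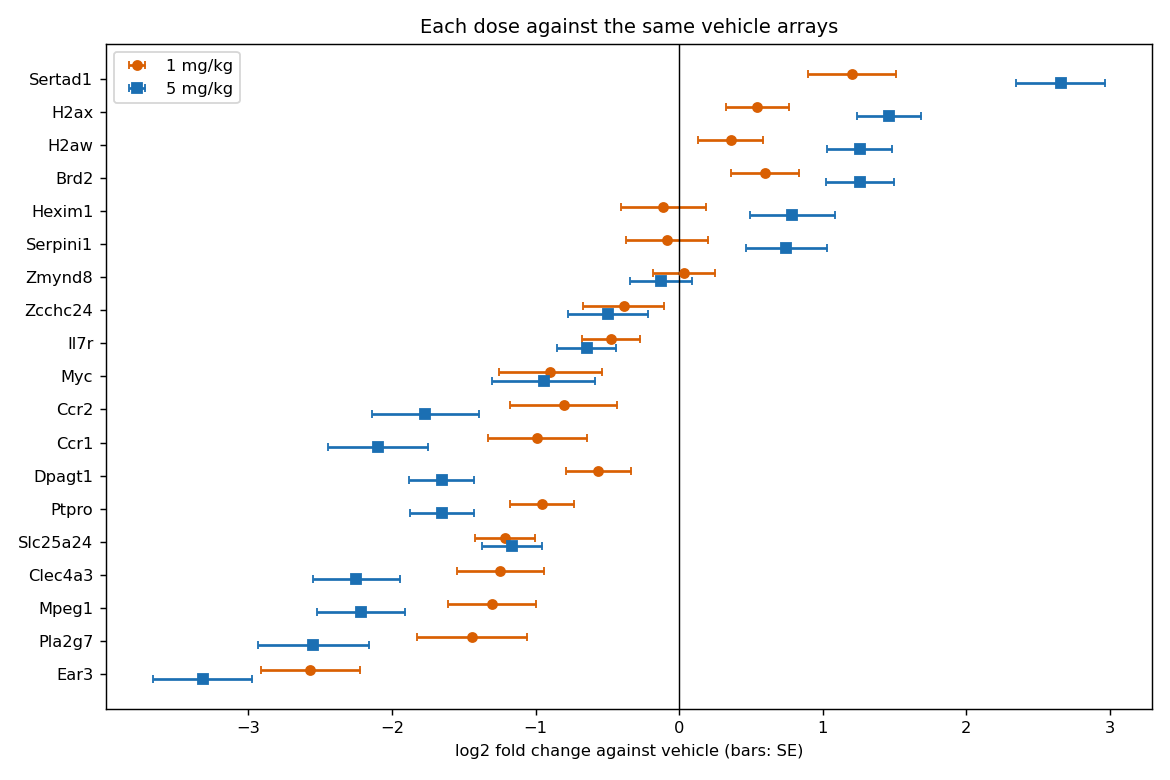
Log2 fold change against vehicle with its SE for the 11 genes past the threshold at 5 mg/kg and 8 genes tied to BET inhibition, at 1 mg/kg (circles) and 5 mg/kg (squares), from 5 arrays per group. Both doses use the same vehicle arrays. Slc25a24 is at -1.21 and -1.16, Sertad1 at 1.20 and 2.66, and Hexim1 at -0.11 and 0.79.

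Genes of general cell functions stayed close to the background median. Cytosolic ribosomal protein genes were lower in 19 of 20, with a small median of -0.18, and Rpl37 was at -0.94 ± 0.29 (SE; adjusted p = 0.641). Heat shock genes were higher in 15 of 24, with a median of 0.06. The chaperone Hsp90aa1 was at 8.39, 8.93, 8.55, 8.58 and 8.51 with vehicle and 8.70, 9.35, 9.27, 9.60 and 9.57 at 1 mg/kg, and replicate 1 lay within the vehicle range (0.71 ± 0.21; adjusted p = 0.543). Its other probe sets gave 0.66, 0.54, 0.49 and, for the dimmest, -0.49. Hspa1b, an inducible Hsp70, was at 0.80 ± 0.32 with 2 of 5 vehicle arrays above the floor. Nucleolar and ribosome biogenesis factors had a median of -0.15 over 25 genes, with Gar1, of the box H/ACA particles, at -0.95 ± 0.36 and Nop56, of the box C/D particles, at 0.96 ± 0.39. Replication and mitosis genes had a median of -0.15 over 28 genes, with the topoisomerase Top2a at -0.74 ± 0.26.

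Immediate-early genes had a median of -0.17 over 23 genes, p53 targets of -0.02 over 15 and the Bcl2 family of -0.07 over 14, with Pmaip1, the pro-apoptotic Noxa, on both of the latter lists at -0.78 ± 0.28 (SE). Circadian clock genes had a median of -0.03 over 11, with Per3 at 0.60 ± 0.27. Dimmer Per3 probe sets gave 0.20, 0.22 and -0.30. Glucocorticoid-induced genes had a median of -0.12 over 14, genes of BET inhibitor response from other studies -0.13 over 16, splicing factors 0.01 over 32, proteasome genes -0.07 over 30, mitochondrial respiratory chain genes 0.05 over 34 and housekeeping genes -0.10 over 13. None of their members passed the threshold.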

How the data were processed

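Whole blood RNA from 15 mice (5 per group) was measured on 1 Affymetrix array each, from 200 ng of total RNA per the labels' protocols. The deposited table gives 1 linear intensity for each probe set and array, some of them negative. How the authors summarised or scaled these is not given in the sources used here, and array medians differed. The 64 control probe sets of 45101 were left out, all 15 arrays were quantile normalised, values under 16 were set to 16, and log2 was taken. Probe sets annotated with 1 gene (34945; 932 had several and 9160 none listed) were used, the brightest per gene. The group means of all 15 arrays were fitted in R 4.3.3 with limma 3.58.1 (eBayes without trend, 12 residual and 3.90 prior degrees of freedom, two-sided, Benjamini-Hochberg over 12499 genes, threshold 0.05). The number of arrays limits the precision. With 1 array per mouse, the spread behind the p-values mixes differences between mice with differences between arrays, and the fit pools it over the 3 groups.

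For 6 array measures an exact permutation test (two-sided, 252 splits of 5 against 5) was used. The script was tested on simulated data with 200 changed genes. It recovered 20 of 100 genes changed by a log2 value of 1 and 69 of 100 changed by 2, with 7 false calls. Many changes of these sizes were thus missed in the simulation. The comparison, its 34 gene lists (825 entries, 729 with a probe set, 640 tested) and all tests were chosen with earlier results of these data known, and the hepatocyte list and its 2 alternatives after these arrays were seen. Lists are described by counts and medians and were not tested. Named were, by rule, the 15 genes of smallest p in each direction whose arrays did not overlap, whose brighter group reached the median of all genes and whose symbol was not a predicted name; every gene past the threshold at either dose; 11 genes tied to BET inhibition; up to 4 of smallest p per list; and the 8 of largest SD at 1 mg/kg. Not all of these 169 genes are described. Promoter windows came from RefSeq (GRCm38.p6); positions of the probe sets were not used here.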

Additional observations from a re-analysis of the deposited data

Results flagged for a closer look

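Among 262 sets of 5 arrays (genes and lists named, in the vehicle and the 1 mg/kg group), 21 had 1 array farther from the others than Dixon's critical value allows (0.71 of the range), where chance gives about 13. That chance count does not allow for values cut at the floor, so the 2 counts are not strictly comparable. The other 4 arrays lay at 4.00 for Serpini1 in both groups and for Cd27 at 1 mg/kg, so the floor sets these flags. At 1 mg/kg there were 12. Replicate 5 stood apart for MHC class II genes, with H2-Aa at 7.16 against 9.36 to 9.62 on the other 4 arrays and H2-Ea at 7.35 against 4.00 to 4.40, so that 1 alpha chain was low and the other high on the same array. The same array was low for the platelet marker list mean (8.23) and for Nop56 (4.00, against 5.63 to 6.20). Replicate 4, the brightest array, was low for Clec4d (6.41), Nfe2 (6.83) and the list mean of Myc and its partners (5.96), and high for the mean of heat shock genes (7.54 against 6.93 to 7.07). Replicate 3 was high for Klf4 (5.89), Cd27 (4.29) and Serpini1 (4.64), and replicate 1, the dimmest array, was high for Mxd4 (6.41 against 5.16 to 5.41).

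With vehicle there were 9. Replicate 1 was low for the NK receptor Ncr1 (5.22) and for the platelet receptors Gp6 (5.68) and Clec1b (9.99), and for Mast4 (5.22). Replicate 2, the vehicle array with the least hepatocyte signal, was high for the T cell marker mean (7.22 against 6.67 to 6.83), the splicing factor mean (7.51 against 6.96 to 7.07) and Serpini1 (5.05). Replicate 3 was low for Tbata (4.49 against 6.07 to 6.28) and Atp5a1 (8.84), 2 of the genes higher at 1 mg/kg. What set these arrays apart was not tested.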

How the results depend on the processing

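Of 28 alternatives, 2 were added after these data were seen: the hepatocyte mean as a covariate, and leaving out 4 arrays of extreme hepatocyte signal. Those 4 had the highest and lowest signal among the vehicle and 1 mg/kg arrays. The lowest array of all, 5 mg/kg replicate 5 (4.69), stayed in. Over the 28 alternatives the number of genes past the threshold was 0 in 16, 1 in 11 and 2 in 1, always by limma. It was 0 without scaling between arrays, when a gene had to exceed the floor on 1 or on 10 arrays (Ear3 was not tested in the latter), without a filter on dim genes, with the 10 arrays fitted alone, with array weights, with the replicate block, with 18S as a covariate, without 1 mg/kg replicates 1 and 4 together, and without the 4 arrays of extreme hepatocyte signal; 142 to 926 genes had an unadjusted p under 0.05 in these. Dropping any 1 of the 10 arrays gave 0 to 2 genes (2 without 1 mg/kg replicate 2). With a floor of 8 the gene that passed was Cenpv, higher (at the standard floor of 16 it lies at the floor on all vehicle and all 5 mg/kg arrays), and not Ear3.

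Ear3 was lower in all 27 alternatives that tested it (-2.97 to -2.02; adjusted p = 6.1e-04 to 0.677). It did not pass at -2.26 (no scaling), -2.97 (floor of 8), -2.57 (filter of 1 array, no filter, and replicate block; adjusted p = 0.0573, 0.0993 and 0.0717), -2.56 (10 arrays alone), -2.24 (array weights), -2.14 (without replicates 1 and 4), -2.53 (18S) and -2.18 (without 4 arrays of extreme hepatocyte signal). Leaving out 1 array gave -2.84 to -2.38. The cause was not tested. The labels only number the replicates, and the numbers were not taken to pair the mice. Same-numbered vehicle and 1 mg/kg arrays deviated together at correlations of -0.184 to 0.247 over genes. Of the 5 treated arrays only replicate 5 correlated best with its own number. These correlations cannot exclude a pairing.

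Of the 90 genes followed through the alternatives 82 kept their sign in each, and 8 turned. Some of the 82 were picked for arrays that do not overlap, which makes a turn unlikely from the start. Serpini1 became 0.0406 without scaling, 0.304 with a floor of 8, 0.00722 with array weights, 0.00167 without replicates 1 and 4, 0.0415 with the hepatocyte covariate and 0.209 without the 4 extreme arrays. Zmynd8 became -0.0292 without scaling, -0.0758 with median scaling, -0.345 with the mean of probe sets and -0.0481 with 18S. Cd180 became 0.0647 without scaling and 0.118 with 18S. Brd3 became 0.176 with a floor of 32 and 0.0263 with the hepatocyte covariate, and Alox15 0.118 with 18S and 0.0613 without the 4 extreme arrays. Hexim1 became 0.203 with the mean of probe sets and 0.0296 without replicates 1 and 4. Mipep became -0.0118 and Mast4 -0.0298 with the mean of probe sets, and Mast4 -0.183 without the 4 extreme arrays, where another of its probe sets was the brightest. Leaving out 1 array gave -0.305 to 0.309 for Brd3, -0.242 to 0.113 for Hexim1, -0.214 to 0.129 for Serpini1 and -0.0434 to 0.144 for Zmynd8.

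The medians of 17 of 35 lists kept their sign in every alternative, among them the monocyte, mature neutrophil (-0.82 to -0.43), MHC class II (-0.97 to -0.40), NK, T and B cell, dendritic, platelet, interferon and lysosome lists. The median of all genes was at most 0.1 from 0 in every alternative, at -0.08 with median scaling. Genes near the floor have only a bounded difference.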

Other observations

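For 3 genes, chosen after their values were seen, the 2 doses are set side by side here. Txnip, the thioredoxin-interacting protein, was at -0.12 ± 0.25 (SE, n = 5 per group) at 1 mg/kg and 0.80 ± 0.25 at 5 mg/kg, and all 5 arrays at 5 mg/kg lay above all 5 at 1 mg/kg (5 mg/kg minus 1 mg/kg 0.93 ± 0.25; limma unadjusted p = 0.00191, adjusted p = 0.486). Cd79a, a chain of the B cell receptor, was at -0.31 ± 0.37 and 0.80 ± 0.37, and the doses differed by 1.11 ± 0.37 (adjusted p = 0.491). Cenpv, a protein named for the centromere, lay at the floor on all 5 vehicle and all 5 arrays at 5 mg/kg. It was above the floor on all 5 at 1 mg/kg, with a mean of 4.79 ± 0.52 (SD, limma adjusted p = 0.455 against vehicle). The filter asks for 5 arrays above the floor, so Cenpv was tested only through the group where it was high. Its p is therefore no evidence of a rise, and no fold is given against groups at the floor. None of these differences passed the threshold.

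The Actb control probe sets at the 3' end exceeded those at the 5' end by a log2 value of 0.71 ± 0.18 (SD, n = 5) with vehicle and 0.75 ± 0.22 at 1 mg/kg (exact two-sided permutation p = 0.754, adjusted p = 0.905 over 6 measures). The Cre spike-in was at 13.65 ± 0.04 and 13.69 ± 0.10 on the log2 scale (exact p = 0.452, adjusted p = 0.905). Replicate 1 at 1 mg/kg, the dimmest array, had the largest 3' to 5' difference of Actb (1.12) and the brightest Cre signal (13.85).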
